A study of Homo sapiens with 6 samples.

Results

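The transcripts described here encode 10 S100 proteins, namely S100A2, S100A4, S100A6, S100A7, S100A8, S100A9, S100A10, S100A11, S100A14 and S100A16. They were taken by symbol from the 22503 gene rows of a count table, where all 10 had a row and all 10 passed the filter on low counts. The cells were CAL-27, an established human line derived from a tongue carcinoma of squamous type, which the labels class as keratinocyte. One group of 3 libraries came from cells exposed to DHA for 48 h and the other group of 3 libraries from cells exposed to DMSO, the solvent, for the same time. DHA was read as dihydroartemisinin, since the series is on artemisinin derivatives, and no dose was found in the labels. The design is a single line without a second clone or a normal keratinocyte. Whether the libraries stem from separate cultures is not stated, so each p-value reflects only how these libraries vary, which may be technical.

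S100 proteins are small calcium sensors of vertebrates. Most carry EF-hand loops that bind calcium, and most work as dimers that, once loaded with calcium, expose a hydrophobic face to a partner protein. Most of their genes lie side by side on chromosome 1 with the genes of the cornified envelope, in the epidermal differentiation complex, and squamous epithelia express many of them. Some members act inside the cell on annexins, myosin or transcription factors, and others are released as antimicrobial proteins and alarmins.

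All 10 members lie on chromosome 1 between 151982915 and 153616325 (GRCh38.p14, RefSeq, 1-based), with S100A10 and S100A11 at one end, S100A8, S100A9 and S100A7 in the middle and S100A2, S100A16 and S100A14 at the other end. Of the 10, S100A9 is on the plus strand and the rest are on the minus strand. RefSeq promoter windows, from 250 bases before to 50 bases after a start, were found for all 10, with 14 windows in all. Of these, 5 windows are shown by the 120 bases before the start. S100A2 and S100A6 are shown because their profiles over the libraries were the closest of any pair of members, S100A16 because it came nearest to the threshold, and S100A8 and S100A9 because their proteins form a heterodimer. Capitals mark matches to 4 motifs, each searched on both strands. They were TATAAA, the core of a TATA box, then TGANTCA, the AP-1 site, then TTNNGNAA, a loose form of the C/EBP site, and lastly TGATGNAA, the C/EBP-ATF element.
S100A2, chr1:153565845-153565964, minus strand: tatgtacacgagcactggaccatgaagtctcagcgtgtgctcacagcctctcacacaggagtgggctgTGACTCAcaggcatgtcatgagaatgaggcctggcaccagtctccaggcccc
S100A6, chr1:153535992-153536111, minus strand: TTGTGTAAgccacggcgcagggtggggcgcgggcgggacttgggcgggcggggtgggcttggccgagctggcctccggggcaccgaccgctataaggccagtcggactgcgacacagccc
S100A16, chr1:153613138-153613257, minus strand: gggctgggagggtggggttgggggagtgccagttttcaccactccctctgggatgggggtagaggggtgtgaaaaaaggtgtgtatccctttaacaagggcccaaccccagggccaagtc
S100A8, chr1:153391074-153391193, minus strand: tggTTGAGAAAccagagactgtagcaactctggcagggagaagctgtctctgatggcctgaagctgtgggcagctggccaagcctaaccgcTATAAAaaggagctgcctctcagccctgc
S100A9, chr1:153357734-153357853, plus strand: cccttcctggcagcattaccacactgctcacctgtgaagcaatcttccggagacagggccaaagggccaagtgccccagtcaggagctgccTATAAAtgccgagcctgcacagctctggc
The letters TATAAA stood in 5 of the 14 windows, those of S100A4, S100A7, S100A8 and S100A9, and in 11.5% of all 35116 RefSeq windows. TGANTCA was found in 1 of the 14 windows, that of S100A2, where TGACTCA begins 52 bases before the start, and in 7.71% of all windows. TTNNGNAA was found in 7 of the 14 windows, from 5 members, and in 36.8% of all windows. TGATGNAA was found in no member window and in 3.62% of all windows. The windows of S100A8 overlap and repeat the same sites. No match in the printed stretches overlapped a match to another of these motifs. These are letter matches only.

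None of the 10 S100 transcripts passed the adjusted threshold of 0.05 in edgeR's quasi-likelihood test of DHA against DMSO. Over all 14649 genes tested 2.70% passed, 1.10% higher and 1.60% lower in DHA. At an unadjusted p under 0.05 there were 4 members, S100A2, S100A6, S100A11 and S100A16, against 20.3% of all genes tested. The DESeq2 Wald test called 1 member, S100A16, and 7.75% of all genes tested, and limma-voom called 0 members and 2.49% of all genes tested. The fitted log2 fold change was positive for 8 members and negative for S100A7 and S100A9. Its median over the 10 was 0.37, against 0.0028 over all genes tested.

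**Figure D1:**
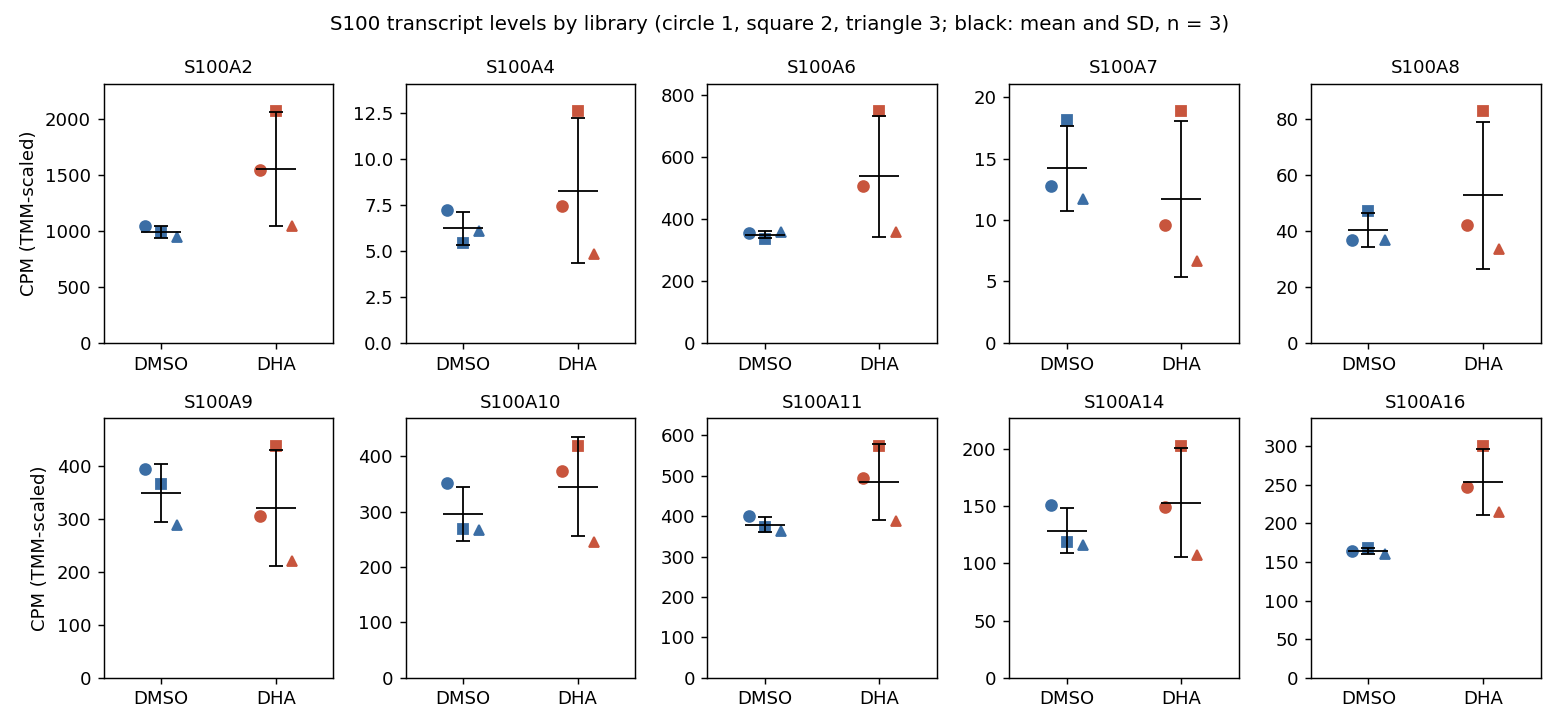
TMM-scaled CPM (vertical axis, from 0) of each S100 transcript in the 3 DMSO libraries (blue) and the 3 DHA libraries (red), with black bars for the mean and SD. In every panel the DHA 2 square is the highest and the DHA 3 triangle the lowest of the DHA points, and the groups stay apart in S100A16, where DHA 3 stood at 215 CPM above a DMSO maximum of 168 CPM.

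In DMSO the highest level per kilobase of exon belonged to S100A2, at 633 ± 33.7 CPM per kb (SD, n = 3), followed by S100A9 at 605 ± 94.2 and S100A11 at 557 ± 27.5 CPM per kb. The libraries of each of these 3 overlapped those of its neighbour in the order. Then came S100A6 at 359 ± 10.96, S100A10 at 192 ± 31.5, S100A14 at 101 ± 15.2 and S100A16 at 96.3 ± 2.28 CPM per kb, where S100A14 and S100A16 overlapped. S100A8 followed at 39.96 ± 6.05, S100A7 at 26.5 ± 6.45 and S100A4 at 6.06 ± 0.884 CPM per kb, each below the one before in all 3 libraries. In DHA the same measure was 991 ± 325 for S100A2, 713 ± 137 for S100A11, 556 ± 189 for S100A9 and 553 ± 202 CPM per kb for S100A6. The order rests on the length used. Per kilobase of the longest transcript, a length chosen after the data were seen, S100A11 stood above S100A9 and S100A16 above S100A14 in DMSO.

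S100A2, a nuclear S100 protein of basal keratinocytes, stood at 1046, 990.2 and 941 CPM in DMSO 1, 2 and 3. It stood at 1546, 2065 and 1047 CPM in DHA 1, 2 and 3. DHA 1 and DHA 2 were well above the DMSO libraries, while DHA 3 exceeded the highest DMSO library by less than 1 CPM and the groups did not overlap. The means were 993 ± 52.7 and 1553 ± 509 CPM, a log2 fold change of 0.65 ± 0.22 (SE, 95% interval 0.16 to 1.13, edgeR adjusted p = 0.145).

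S100A6, also called calcyclin, binds the ubiquitin ligase adaptor encoded by CACYBP and is high in dividing cells. Its level was 354, 337 and 357 CPM in the DMSO libraries and 505, 747 and 359 CPM in the DHA libraries. As for S100A2, DHA 3 lay just above the highest DMSO library. Its gene overlaps a non-coding RefSeq gene. The log2 fold change was 0.62 ± 0.23 (SE, 95% interval 0.11 to 1.13, edgeR adjusted p = 0.174). Both S100A2 and S100A6 passed in the fit without DHA 3 (edgeR adjusted p = 0.0244 and 0.0301), and without DHA 2 their log2 fold changes were 0.39 and 0.31.

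S100A16, a widely expressed member whose partners are less well defined, was at 164, 168 and 160 CPM in DMSO and at 247, 300.3 and 215 CPM in DHA. All 3 DHA libraries stood clear of the DMSO libraries. The means were 164 ± 3.89 and 254 ± 43.0 CPM, a log2 fold change of 0.63 ± 0.14 (SE, 95% interval 0.31 to 0.95, edgeR adjusted p = 0.0506). This value lies at the threshold, and S100A16 passed in 6 of 15 alternatives, among them the DESeq2 Wald test (adjusted p = 0.0041) and the fit without DHA 3 (edgeR adjusted p = 0.0246). In the other 5 fits without a library it did not pass, with an edgeR adjusted p of up to 0.188. S100A2, S100A6 and S100A16 were the 3 members whose groups did not overlap, all higher in DHA. Over all genes tested the groups did not overlap in 27.8%, 14.3% with DHA higher.

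S100A14, which lies next to S100A16 and whose protein is found at the membrane of epithelial cells, was at 151, 119 and 116 CPM in DMSO and 149.5, 203 and 108 CPM in DHA. DHA 2 was above and DHA 3 below all DMSO libraries, and the log2 fold change was 0.25 ± 0.22 (SE, edgeR adjusted p = 0.524). S100A4, also called metastasin, acts on non-muscle myosin and is a marker of motile cells. It was at 7.19, 5.40 and 6.05 CPM in DMSO and 7.41, 12.6 and 4.80 CPM in DHA, with a log2 fold change of 0.41 ± 0.31 (SE, edgeR adjusted p = 0.471). These were 178 to 454 counts a library, the lowest of the 10. The S100A4 gene overlaps S100A5 and the non-coding LOC101928034 in RefSeq, so reads in the shared parts cannot be placed with certainty.

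The annexin partners S100A10 and S100A11 were among the well expressed members. S100A10, or p11, does not bind calcium and joins annexin A2 in a tetramer at the membrane that binds plasminogen. It was at 352, 269 and 266 CPM in DMSO and 373, 418 and 245 CPM in DHA, with overlapping groups and a log2 fold change of 0.22 ± 0.20 (SE, edgeR adjusted p = 0.546). S100A11, which binds annexin A1 and takes part in the growth control of keratinocytes by calcium, was at 399.7, 373 and 364 CPM in DMSO and 494, 573 and 387 CPM in DHA. Its DHA 3 value lay inside the DMSO range, and the log2 fold change was 0.36 ± 0.15 (SE, edgeR adjusted p = 0.237). The annexin genes themselves gave no call. ANXA2 had a mean of 1756 CPM in DMSO and 2100.2 CPM in DHA (edgeR adjusted p = 0.338) and ANXA1 a mean of 1126 and 1279 CPM (edgeR adjusted p = 0.397). The ratio of ANXA2 to S100A10 per kilobase was 1.05 ± 0.108 in DMSO and 1.09 ± 0.145 in DHA (SD, n = 3, exact permutation test, two-sided p = 0.8). Its size rests on the joined exon lengths, 8824 bases for ANXA2 and 1543 for S100A10, so it does not show that the levels match.

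S100A8 and S100A9 form calprotectin, which binds zinc and manganese and so starves microbes, and which signals through the receptors TLR4 and AGER. S100A8 was at 36.8, 47.2 and 36.6 CPM in DMSO and 42.3, 82.7 and 33.4 CPM in DHA. DHA 2 stood far above the other 5 libraries, and DHA 3 was the lowest of all. The log2 fold change was 0.39 ± 0.29 (SE, 95% interval -0.27 to 1.05, edgeR adjusted p = 0.463), and without DHA 2 it was -0.088. S100A9 was at 394, 365 and 289 CPM in DMSO and 306, 437 and 220 CPM in DHA. The groups overlapped, with a log2 fold change of -0.12 ± 0.23 (SE, 95% interval -0.64 to 0.39, edgeR adjusted p = 0.789).

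Within a library the balance of the calprotectin genes can be read without scaling between libraries. The ratio of S100A9 to S100A8, per kilobase of exon, was 18.7, 13.5 and 13.7 in DMSO and 12.6, 9.21 and 11.5 in DHA. Every DHA library had a lower ratio than every DMSO library, with means of 15.3 ± 2.92 in DMSO and 11.1 ± 1.73 in DHA (SD, n = 3). The size of the ratio rests on the length used, while the order of the libraries does not. Per kilobase of the longest transcript the DMSO mean of S100A8 was 56.1 in place of 39.96 CPM per kb, and that of S100A9 stayed at 605. The exact permutation test gave a two-sided p = 0.1, the smallest that 3 against 3 libraries allow, and 0.2 adjusted over the 2 ratios compared. These ratios were chosen after the values were seen. In RefSeq the S100A8 gene overlaps S100A7A and a pseudogene, so reads in the shared parts are uncertain.

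S100A7, or psoriasin, is an antimicrobial protein that is high in psoriatic skin and in squamous carcinomas and binds the fatty acid carrier encoded by FABP5. It was at 12.8, 18.2 and 11.7 CPM in DMSO and 9.57, 18.8 and 6.69 CPM in DHA. DHA 1 and DHA 3 lay below all DMSO libraries and DHA 2 above them, giving a log2 fold change of -0.28 ± 0.34 (SE, 95% interval -1.04 to 0.48, edgeR adjusted p = 0.657). Its close paralog S100A7A was at a mean of 1.30 CPM in DMSO and 0.435 CPM in DHA, a log2 fold change of -1.57 ± 0.51 (SE, edgeR adjusted p = 0.139). Reads may be divided between these paralogs, so both levels are uncertain.

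**Figure D2:**
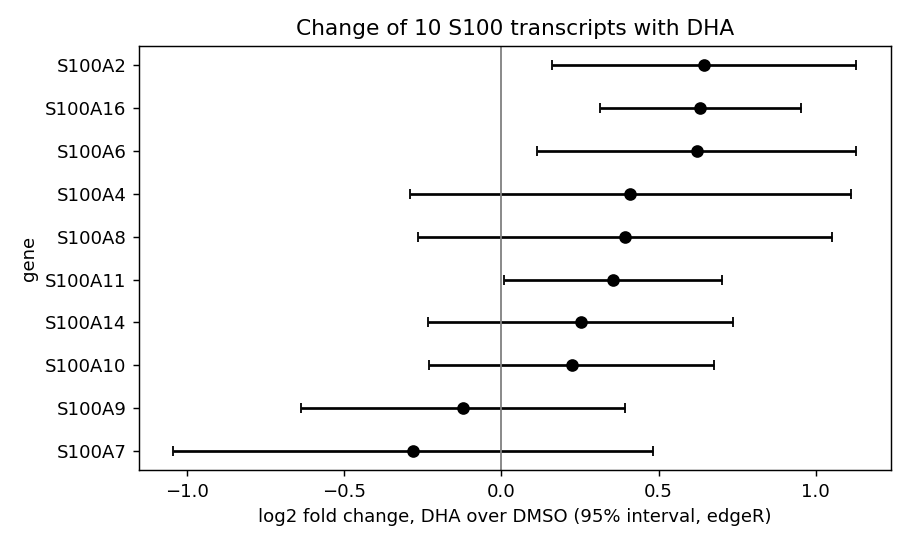
Log2 fold change of DHA over DMSO (horizontal axis) with its 95% interval from the edgeR fit for the 10 S100 genes. The intervals of S100A2, S100A6, S100A11 and S100A16 lie above 0 before any adjustment, from 0.36 to 0.65 in the estimate, and those of the other 6 include 0.

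The DHA libraries stood in the same order for every member. In all 10 members DHA 2 was the highest and DHA 3 the lowest of the DHA libraries, an order seen in 30.1% of all genes tested. DHA 2 was the highest of the 3, whatever the order of the others, in 40.1% of all genes tested. DHA 2 was above every DMSO library in 10 of 10 members and DHA 1 in 6 of 10, while DHA 3 was below every DMSO library in 6 of 10. How often single DHA libraries lay outside the DMSO range over all genes tested was not counted, so these counts have no base rate. The ratio of DHA 2 to DHA 3 ran from 1.40 for S100A16 to 2.82 for S100A7, against a median of 1.01 over all genes tested. The coefficient of variation over the 10 had a median of 14.8% in DMSO and 33.4% in DHA, against 12.97% and 16.1% over all genes tested. Together the members took 0.289%, 0.271% and 0.261% of the counts in DMSO and 0.368%, 0.461% and 0.270% in DHA, so that DHA 3 fell within the DMSO range. S100A2 gave 35.9% to 36.9% of these counts in DMSO and 39.9% to 42.5% in DHA.

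**Figure D3:**
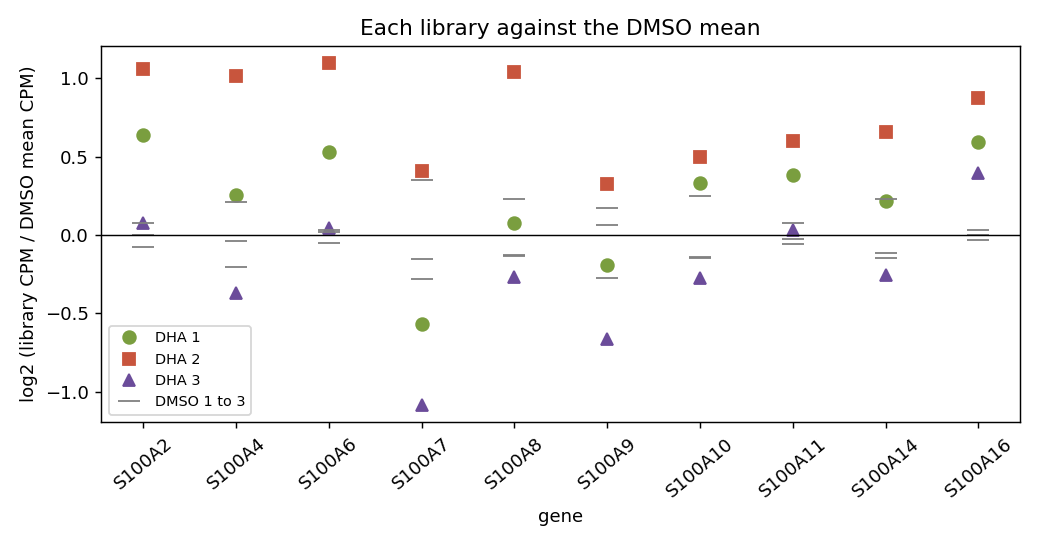
Log2 ratio of the CPM of each library to the DMSO mean (vertical axis) for the 10 S100 genes, with a symbol per DHA library and grey dashes for the DMSO libraries. DHA 2 is the top symbol in all 10 genes and DHA 3 the lowest DHA symbol in all 10, with DHA 1 between them.

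Transcript length moved with this order. All 10 members, with longest transcripts of 479 to 1218 bases in GENCODE 29, fell in the shortest of 5 length bins that held about equal numbers of the tested genes. The median log2 ratio of DHA 2 to DHA 3 was 0.44 in that bin of 2629 genes, and 0.21, -0.0012, -0.16 and -0.43 in the next 4 bins by increasing length. The members stood between 0.48 and 1.48, all 10 above the median of their bin and 8 above its upper quartile of 0.67. The fold change of DHA over DMSO also followed length, with a median of 0.20 in the bin of shortest and -0.15 in the bin of longest transcripts. After each library was corrected for length and GC content, an alternative chosen after the data were seen, the median log2 fold change of the members was 0.10 in place of 0.37. S100A16 then had a log2 fold change of 0.43 (edgeR adjusted p = 0.0245), S100A2 of 0.38 (adjusted p = 0.102), S100A6 of 0.37 (adjusted p = 0.0908) and S100A11 of 0.10 (adjusted p = 0.567). The others moved down as well, S100A9 to -0.40 (edgeR adjusted p = 0.179) and S100A7 to -0.59 (adjusted p = 0.244), S100A8 to 0.096, S100A4 to 0.11, S100A14 to 0.0062 and S100A10 to -0.0040.

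**Figure D4:**
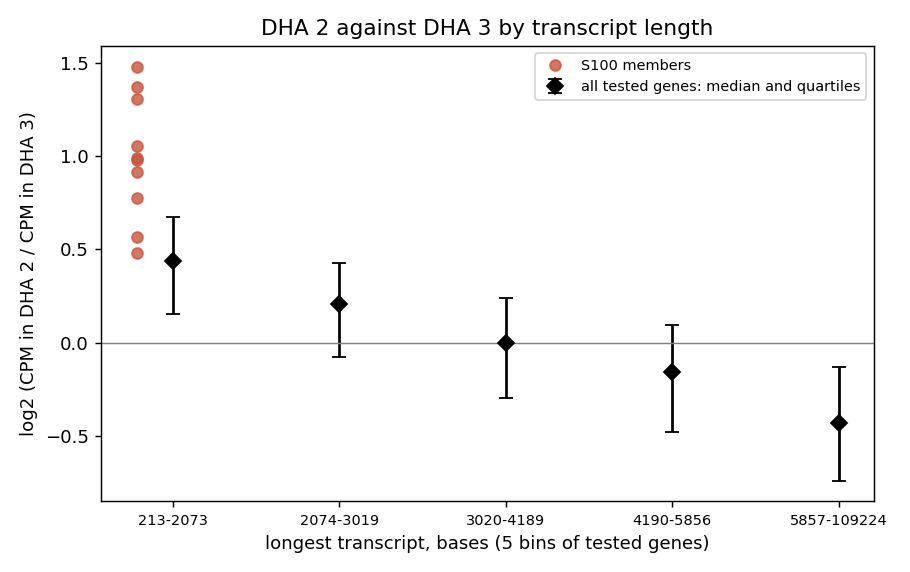
Log2 ratio of CPM in DHA 2 to DHA 3 (vertical axis) by 5 bins of tested genes on the length of the longest transcript in bases (horizontal axis), with black diamonds for the median and bars for the quartiles. The medians go from 0.44 in the shortest bin to -0.43 in the longest, and the 10 S100 members (red) lie between 0.48 and 1.48.

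The profile of S100A2 over the 6 libraries was most like that of SH3BGRL3, at a root mean square difference of 0.0631 log2 units after centring, then S100A6 at 0.0708 and ASB2 at 0.0748. The genes nearest to S100A9 included LY6D (0.0784), a surface protein of squamous epithelium, and FXYD3 (0.0943). S100A8 was most like PET100 (0.136), RPL36 (0.148) and PTRHD1 (0.161). These are among the nearest of 9434 other genes with a mean of at least 10 CPM. Among the members themselves the closest after S100A2 and S100A6 were S100A10 and S100A14, at 0.0799, and the farthest apart were S100A7 and S100A16, at 0.610.

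Of the other S100 genes, 8 of 11 listed had a row and 5 were tested, with 0 calls in edgeR and 2 at an unadjusted p under 0.05, S100A7A and S100A13. Over all genes tested 20.3% had such a p. S100A13, a partner in the release of growth factors without a signal peptide, was at 41.8, 43.9 and 39.4 CPM in DMSO and 57.3, 77.1 and 43.0 CPM in DHA (log2 fold change 0.50 ± 0.20, SE, edgeR adjusted p = 0.197, and 0.0419 without DHA 3). S100A3 had a mean of 10.03 CPM in DMSO and 13.2 CPM in DHA (edgeR adjusted p = 0.252). S100A12, the third calgranulin gene, stayed under 1 CPM in every library. The fused S100 genes of the late epidermis, among them FLG and HRNR, had 4 rows of 7 listed and none was tested, with a summed level of 0.263 to 0.297 CPM in DMSO and 0.0553 to 0.213 CPM in DHA.

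The table held 43 genes that lie wholly between the start of S100A10 and the end of S100A1 on chromosome 1, of which 21 were tested. S100A13 begins in this stretch but ends beyond it and was not counted. Of the 11 that are not among the 10 members, 3 rose and 1 fell, against 1.10% and 1.60% of all genes tested. The cornified envelope genes SPRR1A, SPRR1B and SPRR2D rose by 2.52, 2.36 and 2.52 on the log2 scale, from means of 0.360, 1.15 and 0.127 CPM in DMSO to 2.08, 5.94 and 0.742 CPM in DHA (edgeR adjusted p = 0.0125, 0.0159 and 0.0290). SPRR2D had only 4, 7 and 3 counts in DMSO 1, 2 and 3, and 21, 31 and 30 in DHA 1, 2 and 3. SPRR1A had 8, 17 and 15 counts in DMSO. Both needed their DHA libraries to pass the filter on low counts, so their rises are not independent of it. PGLYRP4, a peptidoglycan recognition protein gene next to S100A9, fell from a mean of 12.6 to 4.54 CPM (log2 fold change -1.47, edgeR adjusted p = 0.0219). Calls in this stretch were lost with a single library left out. Without DHA 1 all 4 were lost, in a fit that called 16 genes, 0.107% of all genes tested. In that fit the log2 fold changes of SPRR1A, SPRR1B, SPRR2D and PGLYRP4 were 2.60, 2.41, 2.69 and -1.43. PGLYRP4 was also lost without DMSO 1 or DMSO 2, and SPRR2D kept its call in 1 such fit. The highest edgeR adjusted p was 0.0996 for PGLYRP4 and 0.0840 for SPRR2D.

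**Figure D5:**
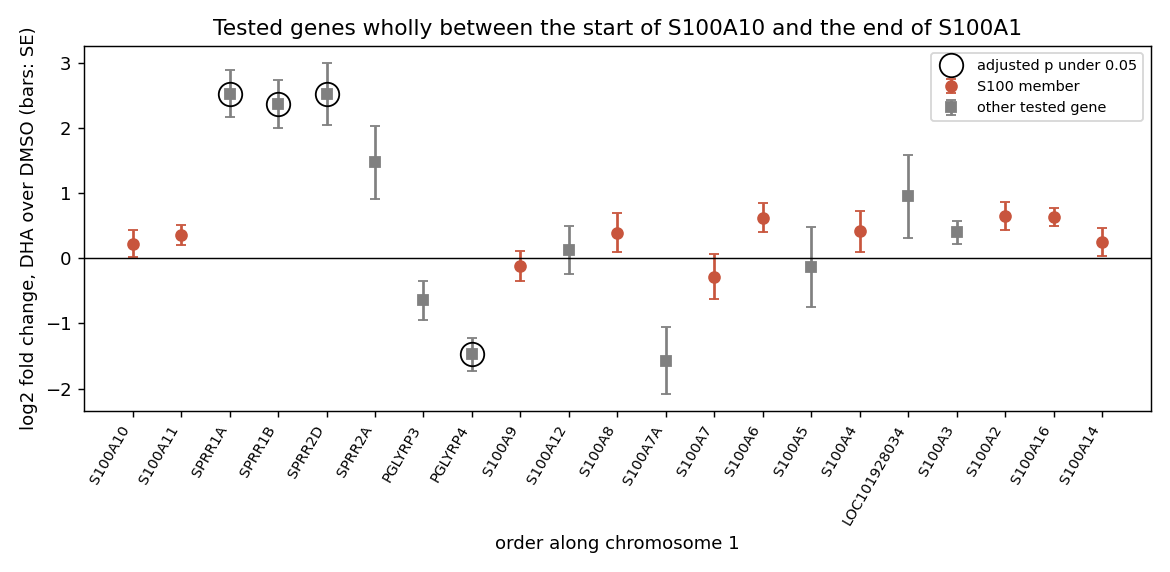
Log2 fold change of DHA over DMSO with its SE (vertical axis) for the 21 tested genes that lie wholly between the start of S100A10 and the end of S100A1, in their order along chromosome 1, with S100 members in red and a ring around genes past the threshold. The rings are on SPRR1A, SPRR1B and SPRR2D, at 2.36 to 2.52, and on PGLYRP4 at -1.47, and the members lie between -0.28 and 0.65.

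Partners and receptors of S100 proteins gave 0 calls among 16 tested genes in edgeR, 6 at an unadjusted p under 0.05, and a median log2 fold change of -0.08. Over all genes tested 20.3% had an unadjusted p under 0.05. MYH9, the myosin bound by S100A4, had a mean of 2393 CPM in DMSO and 1755 CPM in DHA (log2 fold change -0.45 ± 0.14, SE, edgeR adjusted p = 0.134). ALCAM and NPTN, reported receptors of S100A8 and S100A9, had log2 fold changes of -0.44 and -0.41 (edgeR adjusted p = 0.161, or 0.0419 without DHA 3, for ALCAM and 0.146 for NPTN), and FABP5 of 0.53 (adjusted p = 0.196). Of the receptors of calprotectin, TLR4 was at a mean of 4.46 and 4.18 CPM and AGER at 1.21 and 0.811 CPM.

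Genes that are often induced with S100A7, S100A8 and S100A9 in inflamed epithelium gave 2 rises and 0 falls among 11 tested, with a median of 0.50. Over all genes tested 1.10% rose and 1.60% fell past the adjusted threshold. At an unadjusted p under 0.05 there were 9 of the 11, 6 higher and 3 lower in DHA, against 20.3% of all genes tested. The 3 lower ones were KRT17, SERPINB3 and SERPINB4, with log2 fold changes of -1.15, -0.70 and -0.54 (edgeR adjusted p = 0.09999, 0.151 and 0.208). KRT17 was far higher in DMSO 1, at 2547 CPM, than in DMSO 2 and DMSO 3, at 1122 and 1106 CPM. It stood at 858, 785 and 507 CPM in DHA 1, 2 and 3. SERPINB3 and SERPINB4 are close paralogs, as are the keratin 6 genes, so reads may be divided among them and these levels are uncertain. The antimicrobial ribonuclease gene RNASE7 rose from 32.8 ± 1.76 to 61.8 ± 7.98 CPM (log2 fold change 0.91 ± 0.14, SE, edgeR adjusted p = 0.0159), and the stress keratin KRT6A from a mean of 89.4 to 150.4 CPM (adjusted p = 0.0402). Of the cytokines, receptors and transcription factors linked to S100 expression, 2 of 21 rose and 0 fell, with a median of -0.04 and 9 at an unadjusted p under 0.05, 3 higher and 6 lower in DHA. The 2 that rose were the AP-1 subunit FOSL1, with a log2 fold change of 1.13 ± 0.13 (SE, edgeR adjusted p = 0.00598), and KLF4, a factor of squamous differentiation, at 0.69 ± 0.15 (adjusted p = 0.0431). Without DHA 1 all 4 calls were lost, in the fit that called only 0.107% of all genes tested. FOSL1 passed without any of the other libraries, RNASE7 also missed without DMSO 2 or DMSO 3, and KLF4 without these or DHA 2. KRT6A passed without DHA 3 and missed in the 5 other such fits. CEBPB and STAT3, regulators of S100A8 and S100A9 in other settings, had adjusted p of 0.768 and 0.351 by edgeR. The 6 of this list lower in DHA at an unadjusted p under 0.05 were IL22RA1, IL1R1, CEBPD, JUNB, TP63 and ZNF750. Their log2 fold changes were -0.57, -0.77, -0.54, -0.49, -0.42 and -1.30 in that order, with edgeR adjusted p from 0.0745 to 0.209.

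S100A8, S100A9, S100A4 and S100A12 are also genes of myeloid cells. Of 10 listed myeloid markers 7 had a row, and these summed to 13.2 to 21.9 CPM in DMSO and 13.3 to 20.4 CPM in DHA, from CD14, ITGAM and CSF1R, while LYZ, MPO and ELANE had at most 1 count and SPI1 at most 4 counts in any library. PTPRC, CSF3R and FCGR3B had no row under these symbols. CD14 fell from a mean of 5.64 to 2.20 CPM (edgeR adjusted p = 0.024), and its call was lost without DMSO 1, DMSO 2, DMSO 3 or DHA 1. Fibroblast markers summed to 13.9 to 24.1 CPM in DMSO and 9.32 to 14.004 CPM in DHA, with 0 calls among 5 tested. Of these 5, 3 had an unadjusted p under 0.05, all lower in DHA. Endothelial markers summed to 16.9 to 26.7 and 15.6 to 18.8 CPM, most of it CDH5, with 0 calls among 2. Of these, 1 had an unadjusted p under 0.05 and was lower in DHA. All 10 keratinocyte and epithelial markers were expressed, with KRT5 at a mean of 2326 CPM in DMSO and 1844 CPM in DHA and 0 calls among 10, 4 of them at an unadjusted p under 0.05. Over all genes tested 20.3% had such a p. The part of these markers in the S100 values was not tested. In these bulk libraries fewer cells of a type and less RNA per cell cannot be told apart.

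The libraries held 35980670 to 37403613 counts over genes in DMSO and 35983061 to 38120267 in DHA, so the members rested on 178 to 74627 counts each. DMSO 2 and DMSO 3 were the closest pair, at 6.67 for the chi-square averaged over genes, and DHA 2 and DHA 3 the most distant pair within a group, at 126. DMSO 1 stood apart from DMSO 2 and DMSO 3, at 79.7 and 82.8. DHA 1 was at 41.8 from DHA 2 and 44.2 from DHA 3.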

How the data were processed

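Total RNA of CAL-27 cells, extracted with TRIzol, was made into libraries by means of the VAHTS Universal V10 kit, as the labels' protocols state. Per the submitters' processing notes, GRCh38 was the build, and HTSeq, HISAT2, fastp and R (version 3.2.0) were among the tools. Settings, annotation release and strand use are not given in the sources used. The authors deposited raw read counts of genes as whole numbers, without normalization, for 6 libraries.

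Here edgeR 4.0.16 (R 4.3.3) kept 14649 genes by filterByExpr (minimum count 10), scaled by TMM and tested DHA against DMSO with the quasi-likelihood F test, two-sided, with Benjamini-Hochberg adjustment over these genes (threshold 0.05). CPM are counts relative to the scaled total. SE was the fold change over the square root of F. Levels per kilobase used the joined exons of GENCODE 29. The fit was also run on counts simulated without library differences tied to transcript length, which says nothing of such differences in these data. The members, lists, tests and alternatives were chosen with earlier results of these data known. All 10 members are named, list genes where they passed, up to 8 a list, and for S100A2, S100A8 and S100A9 the 3 genes nearest in profile, of which 1 is not reported here. Other list genes, among them partners and receptors, were named after their values were seen. Alternatives were other scalings and filters, a replicate block, DESeq2 1.42.0, limma-voom (limma 3.58.1) and each library left out, with a correction for length and GC content added later, in which the 10.3% of tested genes without a known length were left uncorrected.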

Additional observations from a re-analysis of the deposited data

How the results depend on the processing

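The 0 calls among 10 members became 1 with unscaled library totals, 1 with no filter, 1 in the DESeq2 Wald test and 1 with the length and GC correction (S100A16 each time), 2 with the replicate block (S100A16 and S100A2, edgeR adjusted p = 0.0105 and 0.0327), and 0 to 3 with a library left out. The 3 were S100A2, S100A6 and S100A16 without DHA 3. With a library left out the log2 fold change ran from -0.024 to 0.69 for S100A4, from -0.088 to 0.65 for S100A8 and from -0.0021 to 0.46 for S100A14, turning without DHA 2. It ran from -0.81 to 0.0088 for S100A7 and from -0.41 to 0.10 for S100A9, turning without DHA 3. The direction also turned for S100A10 (-0.0040) with the length and GC correction. The other 144 of 150 member values kept their direction. Unscaled library totals called 2.36% of all genes and the fit without DHA 3 called 5.28%. Over all genes the 395 calls (2.70%) became 649 with no filter (2.88%), 251 above a mean of 5 CPM (2.36%), 1272 with the replicate block (8.68%), 1135 in the DESeq2 Wald test (7.75%) and 1035 with the length and GC correction (7.07%). With a library left out they became 16 (0.107%, without DHA 1) to 789 (5.28%, without DHA 3). The 4 calls in the 5 lists of other S100, fused, partner, companion and regulator genes became 9, 2, 15, 12 and 9 in the same order, and 0 to 10. The summed share of counts in DHA over that in DMSO was 1.34, 1.37 on scaled totals and 1.17 to 1.51 with a library left out. Per kilobase of the longest transcript in place of the joined exons, the DMSO level of S100A11 over that of S100A9 went from 0.92 to 1.05 and that of S100A16 over S100A14 from 0.956 to 1.35. Causes were not tested. Whether replicate numbers pair the libraries was not settled, and the main fit used no block. Same-numbered deviations correlated at 0.26, 0.12 and -0.04. DMSO 1 correlated best with DHA 1, and DMSO 2 with DHA 2 (0.119). DMSO 3 and DHA 3 did not correlate best with each other, and DMSO 3 with DHA 2 gave 0.117. Each member had at least 178 counts in every library.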
